A study of Mus musculus with 4 samples.

Results

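Cxcl17-high tumour cells were 5264 cells, taken from 46342 deposited cells of mouse ascites, that carried at least 3 unique molecular identifiers (UMIs, each standing for 1 captured transcript) of the chemokine gene Cxcl17. They were selected on measured values: a cell had 200 or more genes, at most 33% mitochondrial UMIs, at least 5 UMIs of Krt7, Krt8, Krt18, Krt19 and Wt1 together, no Ptprc (the leukocyte marker CD45), at most 4 UMIs of Cd24a, Gkn2 and Krtdap together, at most 2 UMIs of the proliferation genes Mki67, Top2a and Ube2c together, and 3 or more of Cxcl17. All conditions but the last defined 14392 tumour-gated cells, of which 4281 had no Cxcl17 UMI and served as the comparison. The tumour was ID8-Trp53-/-, a mouse ovarian surface epithelial line with Trp53 knocked out, grown for 7 days in the peritoneum of C57BL/6 mice (female and 6 weeks old per the study's methods) before treatment began. Mice then received, per the labels, DMSO with an IgG control antibody (control), BTYNB at 50 mg/kg with the IgG antibody (BTYNB), DMSO with a PD-1 blocking antibody (anti-PD-1), or BTYNB with the PD-1 antibody (combination), the antibodies at 100 ng per dose, until about 3 mL of ascites had formed. BTYNB is a small molecule that inhibits the RNA-binding protein Igf2bp1, and PD-1 is an inhibitory receptor of T cells. The ascites cells of several mice of a treatment (6 per the study) were pooled into 1 library. No treatment thus has a replicate, no test between treatments was possible, and treatment and library cannot be told apart.

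Cxcl17 encodes a chemokine of mucosal epithelia that draws monocytes, macrophages and dendritic cells. Gpr35, Gpr25 and Cxcr4 have been put forward as its receptors or partners, and the receptor is still under debate. Gstm2, a glutathione S-transferase that conjugates electrophiles, and Cavin3, a coat protein of caveolae, had been proposed as further markers of these cells. ID8 cells derive from ovarian surface epithelium, a mesothelium-like sheet, and can carry Wt1, mesothelin and keratins with little Epcam.

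The 4 libraries held 7858 to 19247 cells and 78603888 to 114600397 UMIs. Median depth in tumour-gated cells ran from 6073 UMIs (anti-PD-1) to 12689 (BTYNB). The shallowest tumour-gated cell held 4446 UMIs in control, 904 with BTYNB, 3551 with anti-PD-1 and 5186 in the combination. The deposited libraries thus began at unlike depths, and BTYNB reached lowest. Of tumour-gated cells without Cxcl17, 70 of 973 in control, 403 of 720 with BTYNB, 719 of 2044 with anti-PD-1 and 0 of 544 in the combination lay below 5000 UMIs. Cell labels shared between any pair of libraries numbered 0 to 4, none of them among Cxcl17-high cells. The gate genes Wt1, Krt8, Krt18 and Krt19 were present in Cxcl17-high cells, Wt1 at 807, 1040, 796 and 1063 CPM (UMIs of the gene per 1e+06 UMIs, summed over cells), listed here and from here on in the order control, BTYNB, anti-PD-1, combination. Krt7, the remaining keratin of the gate, was found in few cells, 2.74%, 4.45%, 7.42% and 4.43% of Cxcl17-high cells against 10.3%, 11.4%, 10.5% and 10.8% of cells without Cxcl17, all thinned to 5000 UMIs. Epcam stood at 0.105, 0, 0.430 and 0.0717 CPM and Cdh1, which encodes E-cadherin, at 2.05, 2.82, 2.69 and 2.73 CPM, so neither defining marker of most epithelia was present above a trace. Mesothelial markers (13 genes in the files) summed to 2381, 3520, 2815 and 3351 CPM in Cxcl17-high cells. Tumour epithelial markers (12 genes, the gate genes among them) summed to 2225, 2765, 2743 and 2752 CPM. The lists hold unlike genes and share Msln, which encodes mesothelin, so the sums do not tell tumour from mesothelial cells. Host mesothelial cells can pass the same gate, and their part in these values was not tested. Trp53 transcripts were counted at 22.6, 31.2, 26.6 and 28.1 CPM, a count that does not show whether the transcript carried the knockout. Macrophage and monocyte markers (11 genes) summed to 30.5 to 93.2 CPM in Cxcl17-high cells against 5965 to 23286 CPM in leukocyte-gated cells (Ptprc of 2 or more UMIs, none of the keratins or Wt1), and T and NK cell markers (10 genes) to 13.3 to 18.9 CPM.

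Cxcl17 itself was present in tumour-gated cells of every library and close to absent from leukocytes. Over all tumour-gated cells the level was 350, 299, 256 and 314 CPM (exact 95% Poisson intervals 344 to 356, 293 to 305, 251 to 261 and 307 to 321, counting error only). Leukocyte-gated cells held 4.75, 4.45, 11.7 and 6.75 CPM, and 0 of 109, 5636, 95 and 662 of them had 3 or more UMIs, which allows a share of up to 2.75%, 0.0532%, 3.16% and 0.453%. Their median depths of 5334, 2604, 4403 and 6715.5 UMIs were below those of the tumour-gated cells. The anti-PD-1 and control values rest on 95 and 109 leukocytes.

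Cxcl17 UMIs were spread unevenly over tumour-gated cells, without a gap at the threshold that chose the members. With cells thinned to 5000 UMIs, which left out the 178, 624, 1520 and 0 tumour-gated cells below that depth, the variance of Cxcl17 was 2.25, 2.36, 2.15 and 2.41 times its mean, against a median of 1.25, 1.30, 1.20 and 1.32 for the 225 to 313 genes with a mean within 1.25-fold of it. Only 5 to 14 of those genes per library were as variable as Cxcl17. Just outside the threshold, 531, 272, 789 and 349 cells had 2 UMIs, and just inside it 409, 163, 492 and 272 had 3. The highest cells held 28, 69, 22 and 63 UMIs. Cxcl17-high cells carried 86.3%, 89.9%, 67.6% and 87.1% of all Cxcl17 UMIs of their tumour-gated population, as the rule implies.

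Cxcl17-high cells made up 41.5% to 46.7% of tumour-gated cells in control, BTYNB and combination ascites and a smaller share with anti-PD-1 alone. There were 1862 of 4121 cells in control (45.2%, exact 95% binomial interval 43.7 to 46.7), 976 of 2354 with BTYNB (41.5%, 39.5 to 43.5), 1275 of 5453 with anti-PD-1 (23.4%, 22.3 to 24.5) and 1151 of 2464 in the combination (46.7%, 44.7 to 48.7). The anti-PD-1 interval did not overlap the others, and anti-PD-1 tumour cells were also the shallowest. Among the 3943, 1730, 3933 and 2464 tumour-gated cells that could be thinned to 5000 UMIs, the shares with 3 or more Cxcl17 UMIs were 27.0%, 22.0%, 17.5% and 22.97%, and the shares with any Cxcl17 UMI 65.5%, 60.5%, 58.5% and 61.9%. The order of anti-PD-1 as the lowest was kept in both, while the gap between anti-PD-1 and control narrowed from 45.2% against 23.4% to 27.0% against 17.5% in cells of that depth, and for the share with any UMI the anti-PD-1 interval (56.9 to 60.0) overlapped that of BTYNB (58.1 to 62.8) and met that of the combination (60.0 to 63.9). Adding cycling and Cd24a, Gkn2 or Krtdap-high cells to the denominator only gave 26.2%, 27.1%, 11.7% and 26.3%. Added cells with 3 or more Cxcl17 UMIs were not counted in these shares, which are thus low wherever such cells are many. Of the added Cd24a, Gkn2 or Krtdap-high cells 55.9%, 64.0%, 56.2% and 60.5% had 3 or more UMIs, and of the cycling cells 53.2%, 44.2%, 23.9% and 44.6%. The anti-PD-1 library held 2771 keratin-gated cells that the limit on Cd24a, Gkn2 and Krtdap left out, against 433 to 631 in the other libraries. These intervals cover counting error within a pool only.

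**Figure D1:**
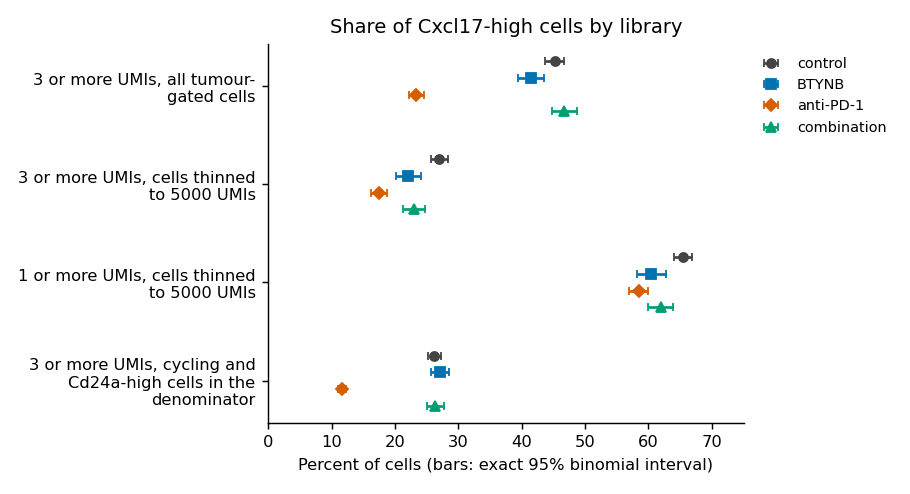
Share of Cxcl17-high cells (x axis, percent) in each of 4 libraries under 4 ways of counting (y axis), with exact 95% binomial intervals as bars. Anti-PD-1 was lowest under each, from 23.4% against 41.5 to 46.7% before thinning to 17.5% against 22.0 to 27.0% in the cells that could be thinned to 5000 UMIs. The last way of counting adds cells to the denominator only, so it is low wherever cycling and Cd24a, Gkn2 or Krtdap-high cells are many.

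Cxcl17-high cells resembled each other in genes other than Cxcl17. Among the 15 nearest neighbours of a Cxcl17-high cell, found within its library in thinned cells without Cxcl17 and the gate genes, 65.2%, 69.2%, 42.5% and 60.4% were Cxcl17-high. Around a cell without Cxcl17 the shares were 24.4%, 38.6%, 17.1% and 31.8%, and over all tumour-gated cells deep enough to be thinned they were 46.3%, 54.5%, 26.7% and 46.7%. Cells without Cxcl17 thus had Cxcl17-high neighbours in all 4 libraries. The remaining neighbours of Cxcl17-high cells were not split into cells with 1 or 2 Cxcl17 UMIs and cells with none. These are descriptions, since Cxcl17 chose the cells.

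The expression of Cxcl17-high cells was next set against tumour-gated cells without Cxcl17 of the same library. A gene counted as higher or lower when it differed at least 1.5-fold in the same direction in all 4 libraries, on the log2(CPM + 5) scale, which understates the change of low genes. Of 8708 genes with a mean of 10 CPM or more (called genes tested from here on, although no significance test was run), 33 were higher (0.379%), Cxcl17 itself among them by the rule, and 54 lower (0.62%). This is the contrast that the threshold on Cxcl17 defines, so the counts describe the cells and test nothing. The median log2 ratio of all genes tested was -0.01, -0.04, -0.03 and -0.01. Median depth differed between the compared cells, at 9670 against 7480, 17628.5 against 4206, 6986 against 5591.5 and 11177 against 9019 UMIs, most of all with BTYNB. With the Cxcl17-negative cells weighted to the depth of the Cxcl17-high cells, 34 genes were higher and 47 lower, 30 and 41 of them shared with the unweighted calls. Perp, Mylk and Igfbp5 were among the calls lost, at 0.44, 0.46 and -0.58 with anti-PD-1. The last gene called higher was Trp53inp2 (nearest ratio 0.59), and the next one outside was Rab27b (0.57).

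Of the proposed markers other than Cxcl17, which the rule itself set apart, neither was called. Gstm2 stood at 607, 526, 533 and 556 CPM in Cxcl17-high cells and at 652, 608, 602 and 670 CPM in cells without Cxcl17, with log2 ratios of -0.10, -0.21, -0.17 and -0.27. It was an abundant gene of all tumour-gated cells, present in 87.1%, 84.7%, 83.1% and 86.5% of thinned Cxcl17-high cells and in 86.9%, 85.2%, 85.1% and 85.5% of the others. Cavin3 was 299, 140, 236 and 175 CPM against 155, 117, 154 and 163 CPM, with log2 ratios of 0.93, 0.24, 0.60 and 0.10. It passed 1.5-fold in control and anti-PD-1 only. Across classes of 0, 1, 2, 3 to 4, 5 to 9 and 10 or more Cxcl17 UMIs, Cavin3 climbed from 155 to 365 CPM in control and from 154 to 334 CPM with anti-PD-1, while with BTYNB it went from 117 to 159 CPM and in the combination from 163 to 211 CPM. The same class is a lower Cxcl17 level in deeper cells. Cells with 10 or more UMIs were 14.1%, 29.5%, 3.92% and 18.3% of Cxcl17-high cells, so these classes are unlike between libraries. The part of depth in the unlike climbs was not tested.

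**Figure D2:**
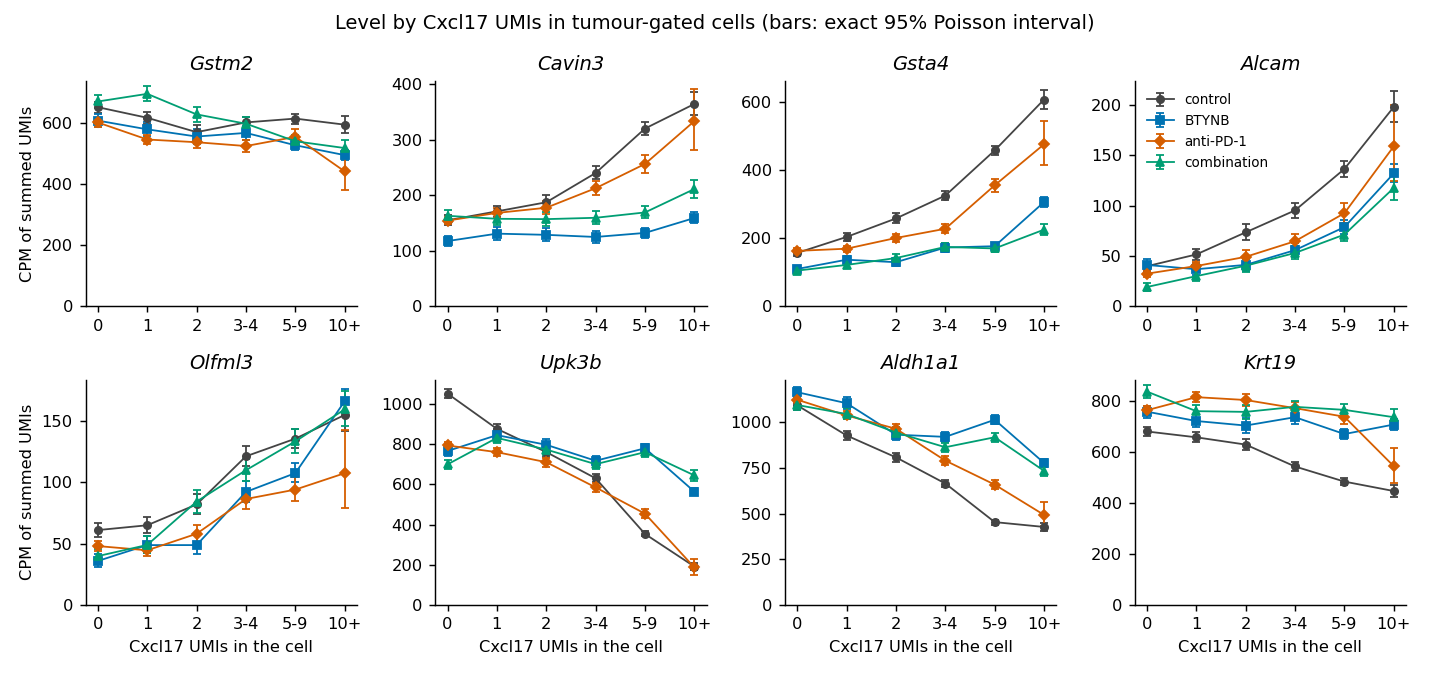
Level of 8 genes (y axis, CPM of summed UMIs) by the number of Cxcl17 UMIs in the cell (x axis, 6 classes) in the 4 libraries, with exact 95% Poisson intervals. Gsta4, Alcam and Olfml3 were higher in each library at 10 or more UMIs than at 0, Gstm2 was not, and Upk3b dropped steeply in control (1053 to 191 CPM) and anti-PD-1 (794 to 186 CPM) and less with BTYNB (767 to 564 CPM) or the combination (700 to 645 CPM). Classes are of raw UMIs and libraries differ in depth, so the same class is not the same Cxcl17 level in each library.

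After Cxcl17, the gene with the largest ratio nearest to 0 was Ndnf. Ndnf, a secreted neurotrophic and vascular factor, was 44.4, 24.1, 39.7 and 27.0 CPM against 9.29, 6.49, 8.61 and 7.59 CPM, a mean log2 ratio of 1.55 (range 1.34 to 1.79). Alcam, an adhesion molecule that binds CD6 on T cells, was 132, 92.2, 80.3 and 74.7 CPM against 39.8, 41.0, 32.3 and 19.1 CPM. It climbed with Cxcl17 in every library, to 198, 132, 159 and 118 CPM in cells with 10 or more Cxcl17 UMIs. Ceacam1, an adhesion molecule that also acts as an inhibitory ligand on leukocytes, was 39.9, 10.4, 21.2 and 12.1 CPM against 7.10, 2.78, 3.94 and 2.78 CPM. Ffar4, a receptor for long-chain fatty acids, was 37.6, 9.81, 32.5 and 10.3 CPM against 8.26, 1.11, 10.3 and 2.41 CPM. Olfml3, a secreted olfactomedin-domain protein, was 134, 125, 90.5 and 131 CPM against 61.0, 35.8, 48.0 and 39.8 CPM.

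Abcc3, a pump for conjugated organic anions, was 51.7, 37.2, 49.1 and 32.9 CPM against 20.9, 15.6, 14.4 and 14.2 CPM. Gsta4, a glutathione S-transferase for lipid peroxidation products, was 435, 222, 290 and 183 CPM against 156, 109, 162 and 104 CPM, and Mgst3, a microsomal member, was 150, 104, 132 and 103 CPM against 66.3, 53.8, 62.0 and 63.5 CPM. Gsta4 and Mgst3 were the 2 genes called among 33 tested of the glutathione and NRF2 list, none of which was called lower, and the list's median log2 ratio of 0.10 ± 0.05 (SD over 4 libraries) was small. Gss, glutathione synthetase, had ratios of 1.16, 0.69, 1.005 and 0.41, and Gsto1 1.37, 0.59, 0.94 and 0.32, both missing the call in the combination. Gstm1 went the other way with BTYNB and the combination (ratios 0.00, -0.76, -0.05 and -0.76). Gstm genes are close copies, so reads can be split between them.

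AW112010, an interferon-inducible transcript, was 162, 94.9, 162 and 116 CPM against 44.5, 26.9, 51.8 and 54.4 CPM. The interferon-alpha list was nonetheless called in 0 of 13 genes, with a median of 0.16 ± 0.06, and the interferon-gamma list in 0 of 16 with a median of -0.01 ± 0.09. The remaining leading genes were Cst8 (cystatin family), Sema4g (semaphorin), Ramp1 (a receptor-activity-modifying protein of the CGRP receptor), Vsig1, Rnf150 and Tspan15, with mean log2 ratios from 0.88 to 1.36. Further down, Perp and Mylk (myosin light chain kinase) were called with means of 0.78 and 0.93, and Fabp5, a fatty acid binding protein, with 0.71. Pygb (brain-type glycogen phosphorylase) and Trp53inp2 were the 2 higher genes lost when collagen-positive cells, described below, were left out.

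**Figure D3:**
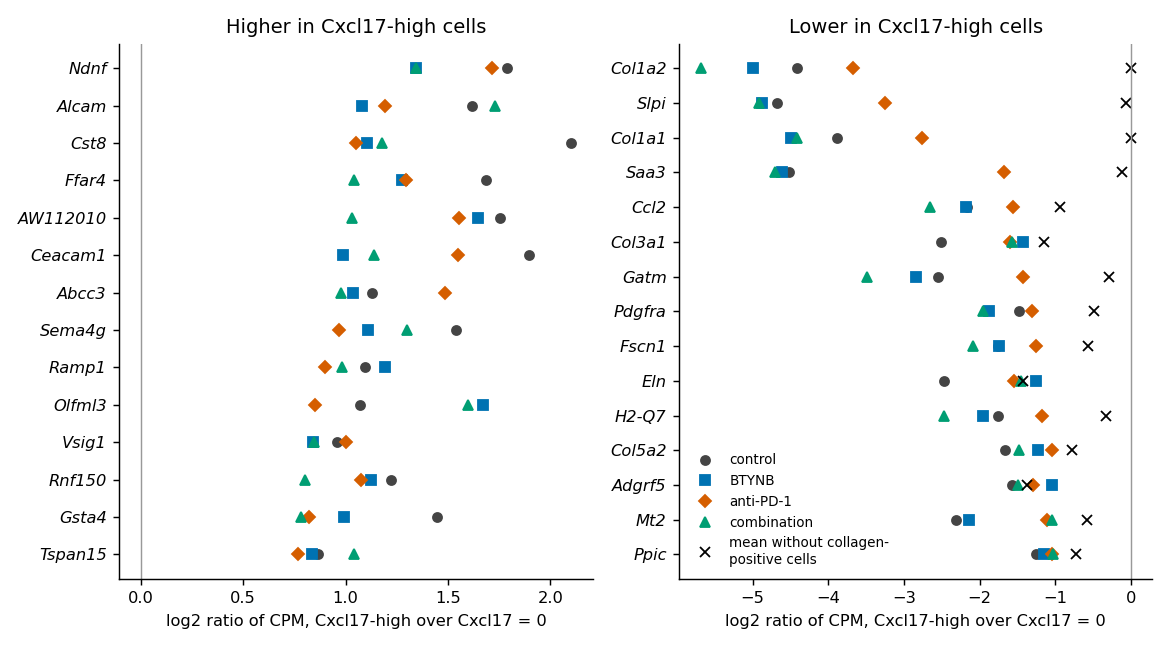
Log2 ratio of CPM (x axis, Cxcl17-high over Cxcl17-negative tumour-gated cells) of 14 genes higher and 15 genes lower in all 4 libraries (y axis), one symbol per library. Crosses give the mean over libraries without collagen-positive cells: 0 for Col1a1 and Col1a2 by construction, near 0 for Slpi and Saa3, and little changed for Eln and Adgrf5.

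The genes lower in Cxcl17-high cells formed 2 sets, one of which depended on a few collagen-positive cells. The largest differences belonged to collagens and acute-phase genes: Col1a2 was 0.999, 0.902, 2.80 and 1.22 CPM in Cxcl17-high cells against 123, 183, 94.3 and 315 CPM, and Slpi, a secreted protease inhibitor, 0.999, 1.97, 2.69 and 2.73 against 149, 201, 67.9 and 228 CPM. Saa3, an acute-phase protein, was 2.26, 4.06, 26.6 and 10.5 against 161, 217, 95.9 and 399 CPM. Cells with 3 or more UMIs of Col1a1 and Col1a2 were 3.49%, 2.50%, 2.01% and 6.62% of the Cxcl17-negative cells and held 97.9%, 98.2%, 95.3% and 98.7% of their collagen UMIs, against 0.215%, 0.615%, 0.627% and 0.695% of the Cxcl17-high cells. The fibroblast list holds Col1a1, Col1a2 and Col3a1 itself, so its fall in part counts the same genes again. Its 10 genes summed to 265, 311, 294 and 284 CPM in Cxcl17-high and to 713, 834, 576 and 1057 CPM in Cxcl17-negative cells. Of its 5 tested genes 4 were called lower, Pdgfra and those collagens. Macrophage and monocyte markers summed to 30.5, 36.9, 93.2 and 75.2 against 69.0, 84.8, 138 and 191 CPM, but depended less on collagen-positive cells. The mean of their library medians (3 genes tested) was -0.82, and -0.67 without those cells or -0.44 with depth weighting. The fibroblast list went from -1.99 to -0.25 without those cells. With every cell holding a Col1a1 or Col1a2 UMI left out, 36 genes were higher (31 shared) and 33 lower (29 shared). Among those no longer called were Col3a1, Slpi, Saa3, Gatm, Pdgfra, Fscn1, H2-Q7, Col5a2, Mt2 and Ppic, with mean ratios of -1.15, -0.07, -0.11, -0.29, -0.48, -0.56, -0.34, -0.77, -0.59 and -0.72.

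The second set was still called lower without those cells, some of it by less. Ccl2, the monocyte-attracting chemokine, was 4.68, 9.98, 7.63 and 10.2 CPM in Cxcl17-high against 38.6, 62.9, 32.1 and 90.5 CPM in Cxcl17-negative cells, and its log2 ratios of -2.17, -2.18, -1.55 and -2.65 became -1.10, -0.93, -0.88 and -0.86 without collagen-positive cells. Eln, which encodes elastin, was 29.4, 74.6, 39.4 and 74.7 against 186, 184, 125 and 214 CPM, with ratios of -2.27, -0.93, -1.42 and -1.09 without those cells. Tnc, tenascin C, was 5.31, 13.4, 6.56 and 12.9 against 19.4, 25.4, 19.3 and 32.6 CPM. Igfbp5, an insulin-like growth factor binding protein of the mesothelial list, was 671, 1080, 751 and 961 against 1334, 1660, 1367 and 1510 CPM. Hspb1, a small heat shock protein, was 479, 844, 722 and 916 against 1156, 1282, 1244 and 1544 CPM. Adgrf5, Aqp2, Rbms3, Pappa, Kcnd2 and Sez6l were also called with and without collagen-positive cells.

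Among chemokines and their partners, Cxcl17-high cells had 0 genes higher and 1 lower of 11 tested, Ccl2. The list's median was -0.28 ± 0.26. Cxcl1, a neutrophil attractant, was 54.5, 112, 47.7 and 106 CPM against 131, 195, 69.4 and 195 CPM, missing the call with anti-PD-1 (-0.50). Cxcl10, which attracts activated T cells, was 19.1, 26.5, 25.9 and 31.5 against 51.6, 52.5, 31.6 and 73.5 CPM, again missing it with anti-PD-1 (-0.24). Csf1, the macrophage growth factor, had ratios of 0.07, 0.43, 0.18 and 0.48. Of the proposed receptors, Gpr35 was 87.1, 90.8, 100 and 100.0 CPM in leukocyte-gated cells and 0.368, 0.677, 0.753 and 0.861 CPM in Cxcl17-high cells. Cxcr4 was 38.0, 94.9, 39.7 and 27.0 CPM in leukocyte-gated cells and 0.158, 1.07, 0.323 and 0.574 CPM in Cxcl17-high cells. Gpr25 was not among the gene symbols of the files.

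Mesothelial and retinoid genes separated Cxcl17-high from Cxcl17-negative cells most in control. Upk3b, a uroplakin of mesothelium, was 426, 687, 514 and 714 CPM against 1053, 767, 794 and 700 CPM, ratios of -1.30, -0.16, -0.62 and 0.03. Aldh1a1, which makes retinoic acid, was 525, 905, 724 and 859 against 1094, 1166, 1125 and 1096 CPM, and Aldh1a2 50.0, 116, 53.9 and 110 against 108, 118, 85.9 and 105 CPM. Muc16, the mucin that carries CA125, was 44.3, 114, 50.8 and 115 against 99.0, 111, 70.5 and 96.8 CPM. For Upk3b, Aldh1a2 and Muc16 the gap was wider in both libraries without BTYNB than in both with it, and the Cxcl17-negative level of Upk3b was itself highest in control. This difference between libraries was not tested. The mesothelial list held 1 gene lower (Igfbp5) and 0 higher of 20 tested, with medians of -0.64, -0.05, -0.29 and -0.03. The retinoid list held 1 lower (Aldh1a7) and 0 higher of 7, with medians of -0.89, -0.36, -0.63 and -0.34. Wt1 itself, a gate gene, was close to level, 807, 1040, 796 and 1063 against 822, 1077, 801 and 972 CPM.

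Immediate early genes, which respond to stress and growth factors within minutes, were called in 0 of 19 genes. Their medians were -0.61, -0.20, -0.20 and -0.22 (mean -0.31 ± 0.20), where all genes tested had -0.01, -0.04, -0.03 and -0.01. The extracellular matrix list held 5 lower and 0 higher of 24 tested, its median being -0.41 ± 0.02, and -0.20 without collagen-positive cells, where only Tnc of the 5 was still called. In the TNF and NF-kB list 2 of 18 were lower (Ccl2 and Vcam1). Antigen presentation differed little: MHC class I genes were called in 0 of 14 (median 0.04 ± 0.04), and in the MHC class II list 1 of 9 was lower, Ctss, a lysosomal protease that was lost without collagen-positive cells. B2m, the light chain of MHC class I, had ratios of 0.28, 0.37, 0.32 and 0.38. Cd274, which encodes PD-L1, was 6.99, 14.5, 22.3 and 19.8 CPM in Cxcl17-high and 10.8, 22.1, 23.1 and 20.7 CPM in Cxcl17-negative cells. Igf2bp1, the target of BTYNB, was low in both classes, 7.41, 9.42, 12.4 and 13.4 against 12.4, 7.24, 15.5 and 12.0 CPM. Ribosomal protein (0 of 20 called, median 0.06 ± 0.02) and respiratory chain genes (0 of 24, 0.04 ± 0.02) were close to level.

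**Figure D4:**
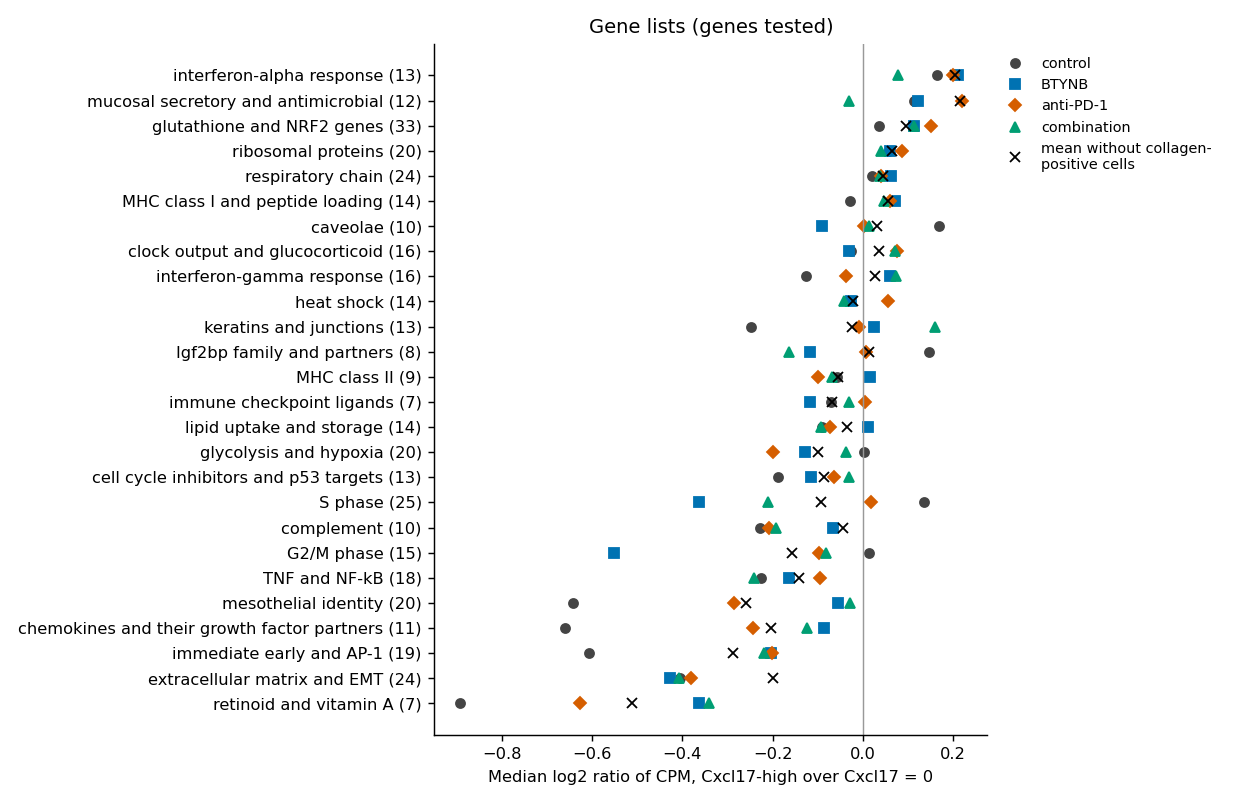
Median log2 ratio (x axis, Cxcl17-high over Cxcl17-negative cells) of each gene list with 5 or more genes tested (y axis, number of genes in brackets), one symbol per library; crosses give the mean without collagen-positive cells. Extracellular matrix, retinoid and immediate early lists lay below 0 in all 4 libraries, with control farthest from 0 in the latter 2, and glutathione and interferon-alpha lists lay slightly above 0.

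Treatments were then compared within Cxcl17-high cells. A gene was called for an agent when it differed at least 1.5-fold in the same direction with and without the other agent, among 6556 genes with a mean of 20 CPM or more. With BTYNB 88 genes were higher (1.34%) and 69 lower (1.05%), the latter with the gate genes Cd24a and Top2a, whose UMIs the rule capped. With anti-PD-1 8 were higher (0.122%) and 0 lower (0%). Each contrast sets 1 pooled library against another, and both contrasts of one agent use libraries that the other agent's contrasts also use. The threshold of 3 UMIs is a lower level in deeper cells, and Cxcl17 in the chosen cells was 601, 468, 657 and 542 CPM, lower in both libraries with BTYNB; the part of this in genes that vary with Cxcl17 was not tested. In Cxcl17-negative cells 14 of the 88, 14 of the 69 and 4 of the 8 were called as well. Those not called there included genes near the cut, such as Sik1 (log2 ratios 0.53 and 0.75 with BTYNB), and level ones, such as Ppfibp2 (-0.02 and -0.01). The share of all 6556 genes called in Cxcl17-negative cells is not given, so these counts do not show a difference between the classes.

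The highest genes with BTYNB were Atf3, Hmcn1, Muc16, Kcnd2 and Halr1. Atf3, a stress-induced transcription factor, was 145 CPM in control and 153 with anti-PD-1, and 361 with BTYNB and 369 in the combination. Muc16 was 44.3 and 50.8 CPM without and 114 and 115 CPM with BTYNB, whereas in Cxcl17-negative cells it was 99.0 and 70.5 against 111 and 96.8 CPM. Hmcn1, a matrix protein, was 32.0 and 28.2 CPM without and 79.3 and 105 CPM with BTYNB. The immediate early list held 5 higher genes of 18 tested (Atf3, Btg2, Egr1, Fosb and Jun), with medians of 0.68 against control and 0.55 against anti-PD-1, where all genes tested had -0.03 and 0.02. In Cxcl17-negative cells the medians were 0.32 and 0.48. Malat1, a nuclear RNA whose share can reflect RNA quality, was also called higher, at 1992 and 2422 CPM without and 4307 and 3977 CPM with BTYNB, and its part in these values was not tested. The mesothelial list held 2 higher of 19 (Aldh1a2 and Muc16) with medians of 0.55 and 0.24, against 0.01 and -0.04 in Cxcl17-negative cells.

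The lowest genes with BTYNB were AA467197, Gsto1, Ffar4, Hmga2 and Ank. AA467197, a small mitochondrial protein gene induced in inflammation, was 42.6 and 37.0 CPM without and 6.03 and 7.03 CPM with BTYNB, where Cxcl17-negative cells had 11.7 and 15.5 against 8.53 and 12.8 CPM. Gsto1, an omega-class glutathione transferase, was 110 and 122 CPM without and 37.2 and 42.0 CPM with BTYNB, against 39.4 and 61.6 and then 23.005 and 32.7 CPM in Cxcl17-negative cells. Hmga2, a chromatin protein, was 27.9 and 52.4 CPM without and 9.76 and 10.7 CPM with BTYNB, and its relative Hmga1 was 101 and 74.6 CPM without and 40.9 and 32.3 CPM with BTYNB. Ffar4, Cst8, Ceacam1, Sema4g, Gsta4, Mylk and Perp, described above as higher in Cxcl17-high cells, were called lower with BTYNB within them. Ffar4, Gsto1, Cst8, Mylk, Perp and Hmga1 were called lower with BTYNB in Cxcl17-negative cells too, and Ceacam1, Sema4g, Gsta4, Hmga2 and AA467197 were not. There Sema4g (log2 ratios -0.579 and -0.952) and Gsta4 (-0.498 and -0.612) missed the cut of 0.585 against control only. Ceacam1 (-0.64 and -0.20) was near the pseudocount, at 7.10 and 3.94 CPM without BTYNB. Hmga2 had -0.003 and -2.23, and AA467197 -0.31 and -0.21. Ffar4 was 37.6 and 32.5 CPM without and 9.81 and 10.3 CPM with BTYNB, against 8.26 and 10.3 and then 1.11 and 2.41 CPM in Cxcl17-negative cells. Gsta4 was 435 and 290 CPM without and 222 and 183 CPM with BTYNB. The comparisons share the Cxcl17-high sums, so they are not independent. Alcam and Olfml3 were not called, at 132 and 80.3 CPM and at 134 and 90.5 CPM without BTYNB against 92.2 and 74.7 CPM and 125 and 131 CPM with it. S phase genes held 0 higher and 2 lower of 16 with medians of -0.76 and -0.46, in cells already limited to 2 UMIs of 3 proliferation genes, a limit that is stricter at greater depth.

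With anti-PD-1 the called genes were Lyz2, Iigp1, Igtp, Krtdap, Gbp7, Zbp1, Irgm2 and Nrgn. Igtp, an interferon-inducible GTPase, was 69.5 and 74.6 CPM without and 188 and 138 CPM with anti-PD-1, and Iigp1, of the same family, 87.2 and 71.4 CPM without and 178 and 143 CPM with it. The interferon-gamma list held 4 higher genes of 15 (Gbp7, Igtp, Iigp1 and Irgm2), with medians of 0.69 and 0.43 in Cxcl17-high and 0.64 and 0.46 in Cxcl17-negative cells. All genes tested had medians of -0.06 and -0.003 in Cxcl17-high and -0.05 and -0.04 in Cxcl17-negative cells. MHC class I genes had medians of 0.61 and 0.20 with none called. H2-K1, a classical class I gene, was 2061, 2885, 3291 and 3077 CPM, lowest in control. Lyz2, a macrophage lysozyme, was 11.8 and 11.6 CPM without and 39.7 and 29.1 CPM with anti-PD-1. The summed macrophage markers, of which Lyz2 is itself 1, were 30.5 and 36.9 against 93.2 and 75.2 CPM. The part of free or captured macrophage RNA was not tested. Krtdap is a gate gene, capped by the rule. Cd274 was 6.99 CPM in control and 14.5, 22.3 and 19.8 CPM in the treated libraries.

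**Figure D5:**
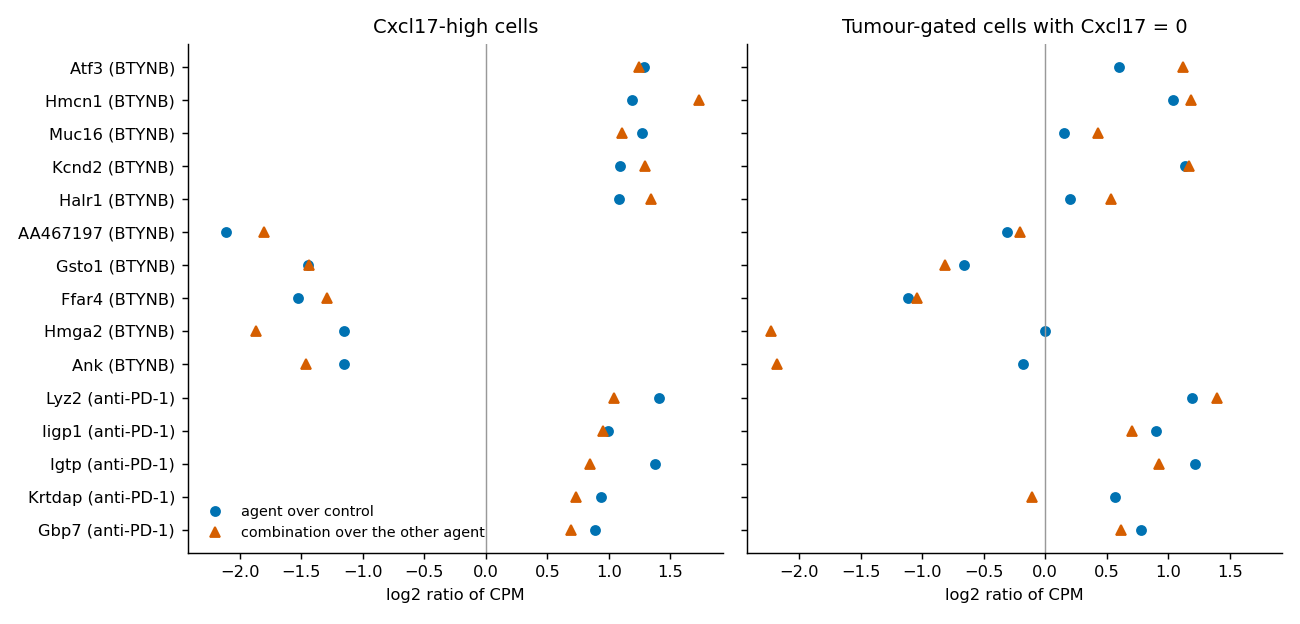
Log2 ratio of CPM (x axis) for the 5 highest and 5 lowest genes with BTYNB and the 5 highest with anti-PD-1 (y axis, agent in brackets), in Cxcl17-high cells (left) and Cxcl17-negative tumour-gated cells (right). Circles set the agent against control and triangles the combination against the other agent; Muc16 lay at 1.27 and 1.10 on the left and at 0.15 and 0.43 on the right, and Igtp at 1.38 and 0.85 on the left and at 1.22 and 0.93 on the right.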

How the data were processed

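Single-cell whole-transcriptome libraries (BD Rhapsody HT) of pooled ascites cells, 1 per treatment, were analysed. The authors deposited counts (UMIs per gene and cell) made with version v2.0 of the kit maker's sequence pipeline, with GRCm39 named in the submitters' processing notes. The study's methods give other BTYNB and antibody amounts than the labels, which are used here. The 29835 genes of the files were joined by symbol, and the UMIs of each class of cells were added up within a library and scaled to 1e+06. Members, lists and call rules were chosen with earlier results of these data known. Named genes were the 3 proposed markers, Igf2bp1, Trp53, the 15 highest and 15 lowest by the ratio nearest to 0, the 5 highest and lowest per agent, and list members; any other gene, such as Pygb, Mylk, Malat1, Rbms3 or Hmga1, was named after its values were seen. Exact binomial (Clopper-Pearson) and Poisson intervals (95%) cover counting error only. Doublets were scored with Scrublet (scanpy 1.11.5), whose own threshold marked 0.0127% to 2.49% of cells and was not used; leaving out the top 5% per library was an alternative. Python 3.11.15, scipy 1.17.1 and scikit-learn 1.9.0 were used. No coordinates are given, since the reference at hand was of another build. Some items are not reported here.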

Additional observations from a re-analysis of the deposited data

Results flagged for a closer look

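Outside the tumour gate, Cxcl17 was also present in keratin-positive cells that the rule left out, above the level in leukocytes of the same library. In cycling cells (over 2 UMIs of Mki67, Top2a and Ube2c) it was 344.6, 237.3, 211.9 and 257.3 CPM in control, BTYNB, anti-PD-1 and combination. In cells with over 4 UMIs of Cd24a, Gkn2 and Krtdap it was 280.7, 242.4, 390.6 and 294.3 CPM, highest with anti-PD-1, the library with the lowest level in tumour-gated cells.

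Each difference that follows sets single libraries side by side and was not tested for significance. In a few results both libraries with BTYNB lay on one side of 0 and both without it on the other, as did 971 of all 8708 genes tested (11.2%). The log2 ratio of Igf2bp1 between Cxcl17-high and Cxcl17-negative cells was on average 0.5381 higher with BTYNB. This split was lost with depth weighting, where the ratios were -0.46, 0.11, -0.25 and -0.01. It rests on 39 and 65 Igf2bp1 UMIs in Cxcl17-negative cells of BTYNB and combination. Counting intervals of the ratio without pseudocount were -1.13 to -0.35, -0.13 to 0.92, -0.67 to 0.02 and -0.26 to 0.59. The median ratio was 0.2196 higher with BTYNB for keratins and junctions, 0.1489 higher for the interferon-gamma response, and changed by -0.3646 for S phase genes and by -0.2179 for the Igf2bp family and its partners. The keratin list holds the gate genes Krt7, Krt8, Krt18 and Krt19, and its medians were -0.25, 0.02, -0.01 and 0.16. S phase genes were read in cells capped at 2 UMIs of 3 proliferation genes. That cap is stricter in deeper cells, and with BTYNB median depth was 17628.5 against 4206 UMIs. The part of the gate and of depth in these splits was not tested. With anti-PD-1 such a split was found for 3.87% of genes and for clock output and glucocorticoid genes, whose median was 0.1021 higher.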

How the results depend on the processing

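The share of Cxcl17-high cells moved with the way of counting while anti-PD-1 stayed lowest in each setting listed. In control, BTYNB, anti-PD-1 and combination it was 26.98%, 22.02%, 17.47% and 22.97% thinned to 5000 UMIs, 65.46%, 60.46%, 58.45% and 61.93% for any UMI after thinning, 58.07%, 53.02%, 37.85% and 60.88% at 2 UMIs, and 27.15%, 28.76%, 9.664% and 27.92% at 5 UMIs. With cycling and Cd24a, Gkn2 or Krtdap-high cells added to the denominator only it was 26.17%, 27.07%, 11.67% and 26.34%. That setting leaves out the Cxcl17-high cells among those added. At 300 CPM it was 35.68%, 30.81% and 39.85% in BTYNB, anti-PD-1 and combination, and with 10 keratin and Wt1 UMIs 46.82%, 50.81% and 25.24% in control, BTYNB and anti-PD-1. The 33 higher and 54 lower genes became 18 and 28 against cells with 2 or fewer UMIs, 11 and 22 with a pseudocount of 20 CPM, and 6 and 15 at 2-fold; the mean over cells gave 21 higher genes. Leaving out collagen-positive cells, an alternative chosen after seeing the data, gave 33 lower genes, 34 with depth weighting; Col1a1 and Col1a2 then stood at 0 by construction. The extracellular matrix median was -0.1993 without those cells and -0.4866 at 5 UMIs. Leaving out 1 library gave 37 to 42 higher and 56 to 72 lower genes, since fewer libraries had to concur. With anti-PD-1, 1 gene was lower with a pseudocount of 1 CPM and 1 after thinning. No paired comparison of treatments was possible because each treatment had 1 library. The contrast within libraries was paired by library, but the rule itself set it, so it was described without a test. Depth limits genes under 10 CPM, and nothing here measures the spread between mice.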
